A study of Homo sapiens with 15 samples.

Results

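The RNA levels of 10 Hippo pathway genes were followed in osteosarcoma cells treated with translation inhibitors. These genes are the coactivator genes YAP1 and WWTR1 (encoding TAZ), the transcription factor gene TEAD1, the kinase gene LATS2, the scaffold genes AMOTL1, AMOTL2 and AJUBA, and the target genes ANKRD1, CTGF (now CCN2) and CYR61 (now CCN1). They were taken by gene name from the count tables, where 52684 Ensembl gene IDs are listed for both cell lines. Rows were picked by gene name, with no measured threshold, but the gene list was drawn up with earlier results of these data known. All 10 genes passed the filter on low counts in both lines.

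MG-63 and Saos2 are established human osteosarcoma cell lines, labelled wild type. Cells of each line were cultured for 24 h with 0.04% DMSO as the vehicle, with (−)-didesmethylrocaglamide (DDR) or with (−)-rocaglamide (Roc), each compound at its growth IC50 for that line. DDR was used at 5 nM in MG-63 and 7 nM in Saos2 cells, and Roc at 25 nM and 40 nM. Both compounds are rocaglates, natural products that clamp the eIF4A RNA helicases on messenger RNA and so block translation initiation, and DDR lacks the methyl groups that Roc carries on its amide nitrogen. Polyadenylated RNA was sequenced from 15 libraries, 2 replicates of each MG-63 group and 3 of each Saos2 group. All are labelled biological replicates except the second MG-63 library with Roc, which is labelled only as a replicate. The MG-63 libraries held 24506297 to 42541127 counts and the Saos2 libraries 28838167 to 39787425.

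In the Hippo pathway, a kinase cascade ends in LATS1 and LATS2, which phosphorylate YAP and TAZ and keep them out of the nucleus. When the kinases are off, YAP and TAZ enter the nucleus, bind TEAD factors on DNA and switch on genes of growth, adhesion and matrix signaling. Angiomotins hold YAP at junctions and on actin, and AJUBA, a LIM domain protein, binds and restrains LATS kinases. LATS2 and AMOTL2 are themselves classic YAP target genes, a known feedback of the pathway. The counts used here measure RNA, and not protein, phosphorylation or YAP activity.

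Osteoblast lineage markers checked the labelled cell type. Both lines expressed COL1A1, COL1A2, RUNX2, SPARC and SPP1 above 1 CPM (counts per 1000000). The mineralization genes ALPL and IBSP and the osteoblast factor SP7 reached that level in Saos2 but in no MG-63 library, and BGLAP in neither line. The 9 osteoblast markers summed to 3305 to 4372 CPM over the MG-63 and to 2579 to 3212 CPM over the Saos2 libraries. Of the epithelial, endothelial, blood cell and muscle markers, only EPCAM and VWF in Saos2 and CDH5 in MG-63 exceeded 1 CPM in any library. EPCAM was well above that level in Saos2, at 16.9 to 22.9 CPM with DMSO, 15.6 to 19.7 CPM with DDR and 16.1 to 16.7 CPM with Roc. The endothelial sums cover 4 markers in MG-63, where PECAM1 had no value, and 5 in Saos2. In MG-63 they were 2.18 to 2.71 CPM with DMSO, 0.411 to 0.758 CPM with DDR and 0.368 to 1.196 CPM with Roc. CDH5, the only one of the 4 with enough counts to test, fell with both compounds (log2 fold changes of −2.39 ± 0.45 and −1.73 ± 0.43). In Saos2 the sums were 0.995 to 1.71, 0.723 to 1.07 and 0.551 to 0.998 CPM with DMSO, DDR and Roc. The part of these markers in the results was not tested.

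The promoters are shown because TEAD factors, which carry YAP and TAZ to DNA, recognize the letters GGAATG. RefSeq promoter sequences of build GRCh38.p14, each covering 250 bases before to 50 bases after a transcription start, were matched for 8 of the 10 genes, with 2 promoters each for WWTR1, AMOTL2 and AJUBA. Those not matched were TEAD1 and CYR61. The letters GGAATG, read on both strands, occurred in 6 of these 11 promoters. Among all 35116 promoters of that length, 14.03% held them at least once and 1.37% held 2 or more copies. In the stretches below, capitals mark GGAATG or its reverse complement CATTCC.
CTGF, chr6:131951450-131951553, minus strand: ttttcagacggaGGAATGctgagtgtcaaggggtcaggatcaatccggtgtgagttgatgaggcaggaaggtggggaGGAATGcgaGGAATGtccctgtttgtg
ANKRD1, chr10:90921198-90921319, minus strand: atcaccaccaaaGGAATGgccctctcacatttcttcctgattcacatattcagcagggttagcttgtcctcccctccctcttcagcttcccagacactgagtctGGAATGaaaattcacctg
YAP1, chr11:102110273-102110302, plus strand: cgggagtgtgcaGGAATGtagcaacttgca
AMOTL2, chr3:134374499-134374528, minus strand: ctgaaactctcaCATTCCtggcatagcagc
AJUBA, chr14:22976884-22976913, minus strand: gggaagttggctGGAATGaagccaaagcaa
LATS2, chr13:21061562-21061587, minus strand: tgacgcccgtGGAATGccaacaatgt

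CTGF carried 3 copies, beginning 169, 104 and 95 bases before the start, and ANKRD1 carried 2, at 220 and 128 bases before it. YAP1, the AMOTL2 promoter and the AJUBA promoter shown had 1 copy each, at 162, 69 and 59 bases before the start. The LATS2 copy began 9 bases after the start. WWTR1, AMOTL1 and the other promoters of AMOTL2 and AJUBA had no match. The letters TGACTCA, bound by AP-1 factors, occur in 4.95% of all promoters, and the CArG box of SRF occurs in 1.29%. Both strands were searched for TGACTCA, the CArG box reads alike on both strands, and neither was found in any of the 11 promoters. A match is a description of the sequence and no measure of binding.

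In treated cells these genes were called higher than with DMSO or were not called, none was called lower, and 7 of the 10 were called higher with Roc in Saos2. A gene was called where its adjusted p was at most 0.05 and its log2 fold change at least 0.5 in size, over all genes tested with edgeR's quasi-likelihood test. Of the 40 log2 fold changes against DMSO, 37 were above 0 and 18 were called, all of them higher. For all protein-coding genes the share above 0 was not counted, and their medians were −0.02 to 0.02. The 37 include values near 0 or on few counts, such as AMOTL1 with Roc (0.01) and ANKRD1, both in MG-63. AJUBA was called in every one of the 4 comparisons, and WWTR1, AMOTL1 and ANKRD1 were called in none. The share of protein-coding genes called in all 4 was not counted. Both compounds of a line were set against the same DMSO libraries, so their values in 1 line are not independent.

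With DDR in MG-63 cells, 4 of the 10 genes were called higher and 0 lower, where 10.6% of all protein-coding genes tested were called higher and 7.28% lower. The median log2 fold change of the 10 genes was 0.48, beside 0.02 for all protein-coding genes. With Roc in MG-63 cells, 2 of the 10 were called higher and 0 lower, beside 5.22% and 2.6% of protein-coding genes, with a median of 0.32 beside 0.02.

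With DDR in Saos2 cells, 5 of the 10 were called higher and 0 lower, beside 8.77% and 8.32% of protein-coding genes. Their median was 0.53, beside −0.02 for all protein-coding genes. With Roc in Saos2 cells, 7 of the 10 were called higher and 0 lower, beside 15.7% and 11.8%. Their median was 1.08, beside −0.00047 for all protein-coding genes.

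**Figure D1:**
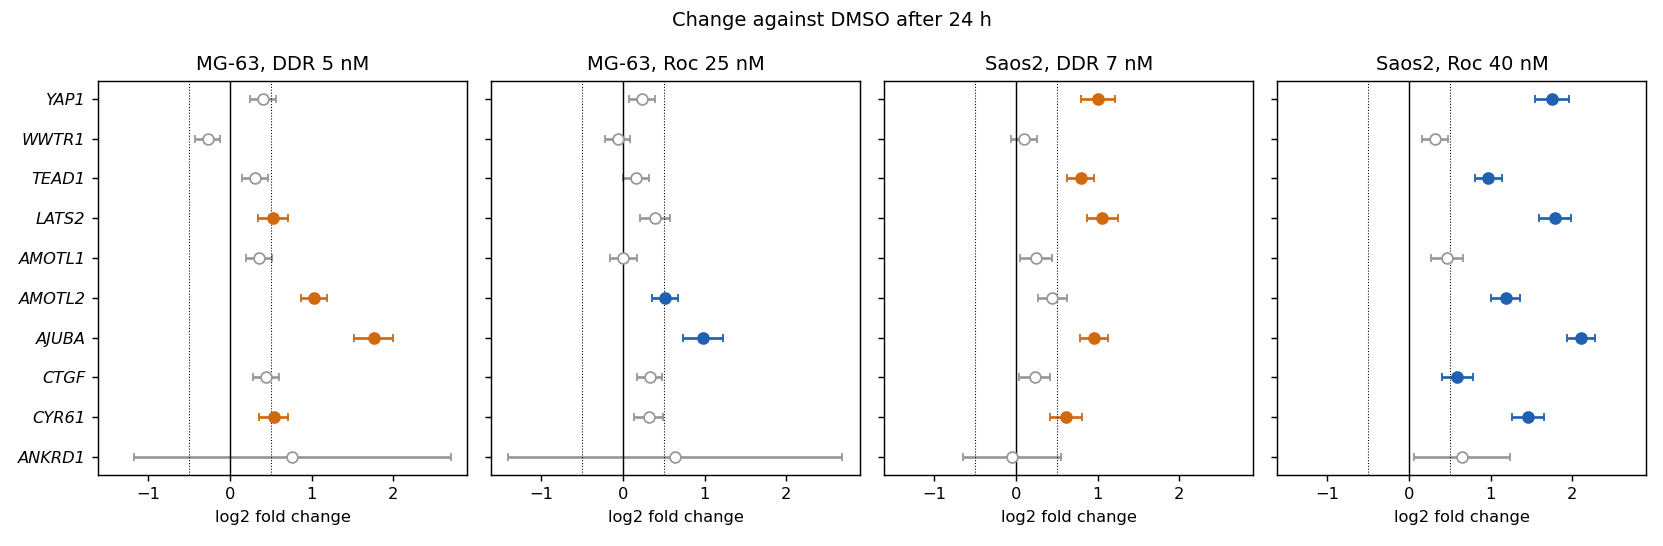
Log2 fold change of each gene against DMSO (horizontal axis, 1 panel for each line and compound). Points are edgeR estimates and bars their 95% confidence intervals, filled where called, and dotted lines mark 0.5 in either direction. AJUBA is filled in all 4 panels, and 7 of the 10 genes are filled in the Saos2 panel for Roc.

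The LATS2 gene (chr13:21547175-21635725 on GRCh37, minus strand) encodes the kinase that inactivates YAP and TAZ. LATS2 measured 28.3 and 29.5 CPM in the MG-63 libraries with DMSO, 41.8 and 41.5 CPM with DDR and 40.2 and 36.0 CPM with Roc. In Saos2 it measured 26.4, 25.3 and 23.5 CPM with DMSO, 48.1, 54.8 and 53.5 CPM with DDR and 93.8, 84.4 and 81.7 CPM with Roc. Every treated library of a line lay above every DMSO library of that line, and in Saos2 every Roc library lay above every DDR library. In bulk RNA of this kind, a change in how many cells express a gene and a change in RNA per cell cannot be told apart.

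LATS2 rose in Saos2 by a log2 fold change of 1.06 ± 0.09, adjusted p = 2.04e-08, with DDR and of 1.79 ± 0.09, adjusted p = 2.69e-12, with Roc, which is 3.45-fold (errors of log2 values are SE throughout). In MG-63 it rose with DDR by 0.53 ± 0.09, adjusted p = 5.44e-05, close to the threshold. Leaving out DMSO replicate 1 gave 0.498, and LATS2 was then not called. With Roc in MG-63 the value was 0.39 ± 0.09, adjusted p = 0.0029, and LATS2 was not called.

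AJUBA (chr14:23440386-23451760, minus strand), whose protein restrains LATS kinases and links junctions to actin, had the largest called fold change among the 10 genes in every comparison against DMSO except DDR in Saos2. In MG-63 it measured 7.95 and 7.67 CPM with DMSO, 27.5 and 25.4 CPM with DDR and 14.95 and 15.8 CPM with Roc. In Saos2 it measured 83.6, 77.2 and 75.6 CPM with DMSO, 148, 166 and 145 CPM with DDR and 365, 312 and 340.5 CPM with Roc. The 3 groups of a line did not overlap, and their order differed between the lines, with DDR highest in MG-63 and Roc highest in Saos2.

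AJUBA rose in MG-63 by 1.76 ± 0.12, adjusted p = 6.68e-11, with DDR, a 3.38-fold change, and by 0.98 ± 0.12, adjusted p = 3.62e-06, with Roc. In Saos2 it rose by 0.96 ± 0.08, adjusted p = 1.48e-08, with DDR and by 2.11 ± 0.08, adjusted p = 6.13e-14, with Roc, a 4.30-fold change. AJUBA shares 0.85% of its exon bases with the protein-coding gene ENSG00000259132 on the same strand.

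AMOTL2 (chr3:134074189-134094321, minus strand) encodes an angiomotin that retains YAP at junctions. AMOTL2 measured 56.4 and 56.1 CPM with DMSO, 114 and 116 CPM with DDR and 84.1 and 77.3 CPM with Roc in MG-63. In Saos2 the levels of AMOTL2 were 48.9, 41.0 and 43.3 CPM with DMSO, 58.0, 62.4 and 61.1 CPM with DDR and 108, 94.9 and 99.9 CPM with Roc. As for AJUBA, no groups of a line overlapped, and the higher compound was DDR in MG-63 and Roc in Saos2.

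AMOTL2 rose in MG-63 by 1.03 ± 0.08, adjusted p = 4.04e-10, with DDR, a 2.04-fold change, and by 0.52 ± 0.08, adjusted p = 3.58e-05, with Roc. Without Roc replicate 1 the latter was 0.447, and AMOTL2 was not called. In Saos2 it rose by 1.19 ± 0.09, adjusted p = 4.57e-10, with Roc, while with DDR its log2 fold change of 0.45 ± 0.09, adjusted p = 0.000455, was under the size threshold. AMOTL2 shares 2.89% of its exon bases with the pseudogene RPL39P5 on the same strand.

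AMOTL1 (chr11:94439597-94609913, plus strand), the paralog of AMOTL2, was called in no comparison against DMSO. It measured 69.5 and 68.0 CPM with DMSO, 85.7 and 90.8 CPM with DDR and 73.5 and 64.9 CPM with Roc in MG-63. In Saos2 AMOTL1 measured 47.3, 49.7 and 52.1 CPM with DMSO, 51.4, 62.6 and 63.5 CPM with DDR and 73.8, 67.4 and 65.0 CPM with Roc. The DDR libraries of MG-63 and the Roc libraries of Saos2 lay above their DMSO libraries, while the Roc libraries of MG-63 and the DDR libraries of Saos2 overlapped them.

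The log2 fold changes of AMOTL1 with DDR were 0.36 ± 0.08 in MG-63 and 0.25 ± 0.09 in Saos2, and with Roc 0.01 ± 0.08 and 0.47 ± 0.09. Without DMSO replicate 3 of Saos2, the last value was 0.502 and AMOTL1 was called. The long noncoding RNA gene ENSG00000256469 covers 4.95% of its exon bases on the opposite strand.

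YAP1 (chr11:101981178-102104155, plus strand) encodes the coactivator YAP. YAP1 measured 198 and 205 CPM with DMSO, 269 and 265 CPM with DDR and 254 and 221 CPM with Roc in MG-63. In Saos2 YAP1 measured 36.1, 31.4 and 31.4 CPM with DMSO, 59.2, 64.6 and 74.2 CPM with DDR and 110.2, 99.7 and 122 CPM with Roc. No group of a line overlapped its DMSO libraries, and the gaps to DMSO, relative to its level, were wider in Saos2 than in MG-63.

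YAP1 rose in Saos2 by 1.00 ± 0.10, adjusted p = 1.31e-07, with DDR and by 1.75 ± 0.10, adjusted p = 1.26e-11, with Roc, a 3.36-fold change. In MG-63 its log2 fold changes of 0.40 ± 0.08, adjusted p = 0.000202, with DDR and 0.23 ± 0.08, adjusted p = 0.0334, with Roc were under the size threshold. The noncoding gene ENSG00000254422 covers 9.95% of the YAP1 exon bases on the opposite strand, and ENSG00000277459 covers 0.17%.

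WWTR1 (chr3:149235022-149454501, minus strand) encodes TAZ, the partner of YAP, and was called in no comparison against DMSO. WWTR1 measured 433 and 467 CPM with DMSO, 362 and 384 CPM with DDR and 416 and 446 CPM with Roc in MG-63. In Saos2 WWTR1 measured 136, 148 and 155 CPM with DMSO, 151, 148 and 169 CPM with DDR and 180.0, 181 and 188 CPM with Roc. Its DDR libraries lay below the DMSO libraries in MG-63, and its Roc libraries lay above them in Saos2.

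The log2 fold change of WWTR1 in MG-63 was −0.27 ± 0.07, adjusted p = 0.00625, with DDR and −0.06 ± 0.07, adjusted p = 0.621, with Roc. In Saos2 it was 0.10 ± 0.08, adjusted p = 0.402, with DDR and 0.32 ± 0.08, adjusted p = 0.00174, with Roc. None reached 0.5 in size, and the 95% confidence interval was −0.42 to −0.12 with DDR in MG-63 and 0.16 to 0.48 with Roc in Saos2. WWTR1-AS1 covers 9.05% of its exon bases on the opposite strand.

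TEAD1 (chr11:12695968-12966284, plus strand) encodes the factor through which YAP and TAZ reach DNA. TEAD1 measured 475 and 447 CPM with DMSO, 598 and 544 CPM with DDR and 544 and 486 CPM with Roc in MG-63. In Saos2 TEAD1 measured 165, 171 and 189 CPM with DMSO, 299, 288 and 325 CPM with DDR and 359, 315 and 358 CPM with Roc. In both lines the treated libraries lay above the DMSO libraries and the DDR and Roc libraries overlapped.

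TEAD1 rose in Saos2 by 0.79 ± 0.08, adjusted p = 1.48e-07, with DDR and by 0.97 ± 0.08, adjusted p = 2.48e-09, with Roc. In MG-63 its log2 fold changes were 0.31 ± 0.08, adjusted p = 0.00325, with DDR and 0.16 ± 0.08, adjusted p = 0.167, with Roc, both under the size threshold.

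CYR61 (chr1:86046444-86050272, plus strand) encodes a secreted matricellular protein and is one of the most used readouts of YAP activity. CYR61 measured 58.3 and 63.1 CPM with DMSO, 80.4 and 96.0 CPM with DDR and 77.5 and 73.6 CPM with Roc in MG-63. In Saos2 CYR61 measured 331, 264 and 346 CPM with DMSO, 460.2, 520.0 and 456 CPM with DDR and 951, 837 and 806 CPM with Roc. All treated libraries of a line exceeded its DMSO libraries, and the Roc libraries of Saos2 stood well above the DDR libraries.

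CYR61 rose in Saos2 by 1.46 ± 0.10, adjusted p = 7.07e-11, with Roc, a 2.76-fold change, and by 0.61 ± 0.09, adjusted p = 3.62e-05, with DDR. The DDR value was 0.488 without DMSO replicate 2, and CYR61 was then not called. In MG-63 CYR61 rose with DDR by 0.54 ± 0.08, adjusted p = 2.66e-05. This value was 0.397 without DDR replicate 2 and 0.486 without DMSO replicate 1, both short of a call. With Roc in MG-63 it was 0.31 ± 0.09, adjusted p = 0.0114, and CYR61 was not called.

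CTGF (chr6:132269316-132272512, minus strand) encodes connective tissue growth factor, the other standard YAP readout, and was the gene of the 10 with the most counts in MG-63. CTGF measured 2138 and 2270.3 CPM with DMSO, 2917 and 3074 CPM with DDR and 2688 and 2843 CPM with Roc in MG-63. In Saos2 CTGF measured 72.9, 65.5 and 79.9 CPM with DMSO, 84.3, 80.6 and 90.9 CPM with DDR and 118, 96.5 and 115 CPM with Roc. All treated libraries lay above the DMSO libraries of the same line, by a smaller step than for CYR61 in the Saos2 libraries with Roc.

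CTGF rose in Saos2 with Roc by 0.59 ± 0.09, adjusted p = 1.9e-05. Without DMSO replicate 2 this was 0.49 and CTGF was not called. The other log2 fold changes of CTGF were 0.23 ± 0.09 with DDR in Saos2, and in MG-63 they were 0.44 ± 0.08 with DDR and 0.33 ± 0.08 with Roc, none of them called. LINC01013 covers 11.89% of the CTGF exon bases on the opposite strand.

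ANKRD1 (chr10:92671853-92680844, minus strand), a YAP target gene that encodes an ankyrin repeat protein, was sparse in MG-63. It had 0 and 13 counts in the MG-63 libraries with DMSO, 7 and 14 with DDR, and 10 and 4 with Roc. In Saos2 ANKRD1 measured 2.00, 1.69 and 2.29 CPM with DMSO, 1.35, 2.51 and 1.92 CPM with DDR and 3.68, 3.12 and 2.61 CPM with Roc. The MG-63 groups overlapped at this depth, and in Saos2 the Roc libraries lay above the DMSO libraries while the DDR libraries overlapped them.

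The log2 fold change of ANKRD1 with Roc in Saos2 was 0.65 ± 0.28, adjusted p = 0.0726, and with DDR it was −0.05 ± 0.29, adjusted p = 0.923. Neither was called, and a fit of the Roc and DMSO libraries alone called the former (0.65, adjusted p = 0.0468). In MG-63 the intervals were −1.2 to 2.7 with DDR and −1.41 to 2.68 with Roc, so that a change was not detectable at this depth.

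**Figure D2:**
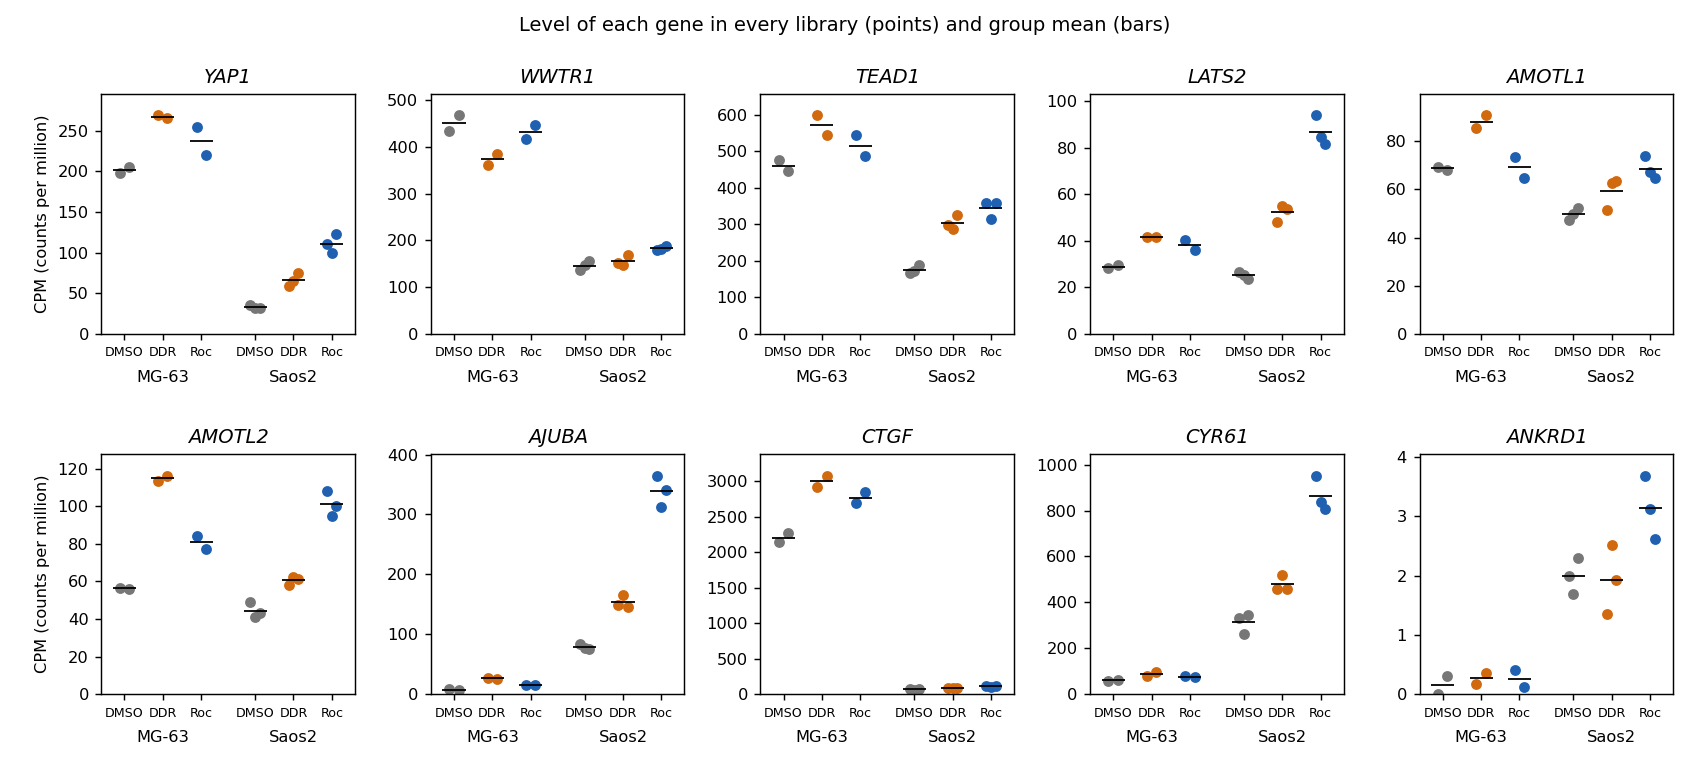
Level of each gene in CPM (vertical axes, starting at 0 and scaled separately for each gene) in every library, by line and treatment. Points are libraries (2 per MG-63 group, 3 per Saos2 group) and black bars group means, with DMSO in gray, DDR in orange and Roc in blue. AJUBA and AMOTL2 are highest in the DDR libraries of MG-63 and in the Roc libraries of Saos2.

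The compounds were then set against each other within each line, 2 comparisons in all. Roc stood at 25 nM against 5 nM of DDR in MG-63 and at 40 nM against 7 nM in Saos2, so these values compare cultures at each compound's own IC50 and not matched doses. In Saos2, 5 of the 10 genes were called higher with Roc than with DDR, where 3% of protein-coding genes were. These were AJUBA (1.15 ± 0.08, adjusted p = 1.06e-08), CYR61 (0.85 ± 0.09), YAP1 (0.75 ± 0.10), AMOTL2 (0.74 ± 0.09) and LATS2 (0.73 ± 0.09). TEAD1 was not, at 0.18 ± 0.08 with an interval of 0.01 to 0.34. Without DDR replicate 2, ANKRD1 was called as well, at 0.92, and 996 protein-coding genes were called in either direction, while 375 were without DDR replicate 1.

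In MG-63, 2 of the 10 genes were called lower with Roc than with DDR, where 0.645% of protein-coding genes were. They were AJUBA, at −0.78 ± 0.11, adjusted p = 0.000507, and AMOTL2, at −0.51 ± 0.07, adjusted p = 0.00052. Without DDR replicate 2 or Roc replicate 2, AMOTL2 was at −0.498 or −0.452 and not called. The other genes were not called, with YAP1 at −0.17 ± 0.08, LATS2 at −0.13 ± 0.09 and CYR61 at −0.22 ± 0.08. Leaving out DDR replicate 1 or Roc replicate 1 raised the number of protein-coding genes called in this comparison to 262 and 208, and leaving out DDR replicate 2 lowered it to 54.

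The responses of the lines were compared next, as the log2 fold change in Saos2 minus that in MG-63, in a fit of all 15 libraries. DDR was used at 7 nM against 5 nM and Roc at 40 nM against 25 nM. The tables of the lines were also counted on different annotations. A difference between the lines cannot be told apart from these differences or from any between sequencing runs. For Roc, 7 of the 10 genes responded more in Saos2, where 10.6% of protein-coding genes did. The differences were 1.56 ± 0.13, adjusted p = 1.99e-08, for YAP1, 1.44 ± 0.13 for LATS2, 1.19 ± 0.15 for CYR61, 1.17 ± 0.13 for AJUBA, 0.86 ± 0.12 for TEAD1, 0.71 ± 0.12 for AMOTL2 and 0.50 ± 0.13 for AMOTL1. The AMOTL1 value sat at the threshold, falling to 0.438 without Roc replicate 2 of MG-63, 0.452 without Roc replicate 1 of Saos2 and 0.459 without DMSO replicate 1 of Saos2, where it was not called. It was also short of a call, at 0.386 to 0.498, under RLE or total-count scaling, under DESeq2 and under the other filters on low counts. WWTR1 was at 0.43 ± 0.12 and CTGF at 0.31 ± 0.13, not called, and without Roc replicate 2 of MG-63 WWTR1 was at 0.509 and called. ANKRD1, at 0.10 ± 0.99, was not called.

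For DDR, the genes divided. YAP1 (0.63 ± 0.13, adjusted p = 0.00189), LATS2 (0.57 ± 0.13) and TEAD1 (0.52 ± 0.12) responded more in Saos2, and AJUBA (−0.76 ± 0.13, adjusted p = 0.000277) and AMOTL2 (−0.55 ± 0.12) more in MG-63. These are 3 and 2 of the 10 genes, beside 8.26% and 8.48% of protein-coding genes called in each direction. The TEAD1 value fell under 0.5 without MG-63 DDR replicate 2 (0.463), MG-63 DMSO replicate 1 (0.488), Saos2 DDR replicate 3 (0.458) or Saos2 DMSO replicate 1 (0.471), and AMOTL2 was at −0.484 without the last of these libraries. TEAD1 was also at 0.487 to 0.499 under the same other scalings, filters and DESeq2. CYR61 differed by 0.11 ± 0.15 (interval −0.20 to 0.41) and CTGF by −0.18 ± 0.13, and WWTR1, AMOTL1 and ANKRD1 were not called either. Without MG-63 DMSO replicate 2, which left the MG-63 DMSO group with a single library of 0 ANKRD1 counts, ANKRD1 was called, but a fold change fitted against 0 counts depends on the fit and is no measure of size. AJUBA and AMOTL2 were thus called in opposite directions for the 2 compounds.

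**Figure D3:**
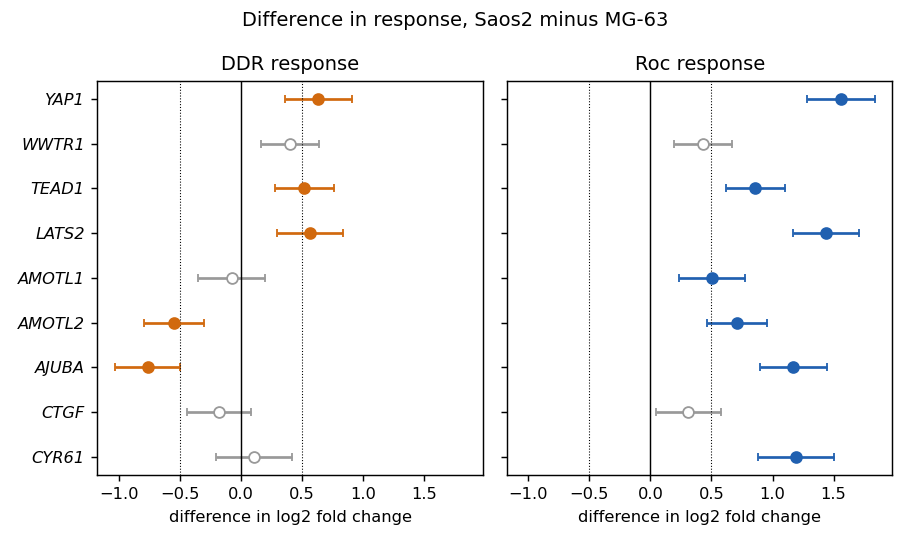
Difference in log2 fold change against DMSO, Saos2 minus MG-63 (horizontal axis), for DDR and Roc. Points are edgeR estimates from the fit of 15 libraries, bars their 95% confidence intervals, filled where called, and ANKRD1, with 0 to 14 counts in MG-63 libraries, is left out. AJUBA and AMOTL2 lie left of 0 for DDR and right of it for Roc.

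Levels between genes were compared as CPM per kilobase of exon. With DMSO in MG-63, CTGF stood far above the rest at 943 ± 40.0 (SD, n = 2), followed by WWTR1 at 53.9 ± 2.86, TEAD1 at 43.1 ± 1.86 and YAP1 at 31.95 ± 0.814. CYR61 was at 16.4 ± 0.904, AMOTL2 at 8.68 ± 0.0344, AMOTL1 at 6.86 ± 0.105, LATS2 at 5.15 ± 0.154, AJUBA at 1.33 ± 0.0341 and ANKRD1 at 0.0851 ± 0.120. The ranges of neighbors in this order did not overlap.

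With DMSO in Saos2, CYR61 was first at 84.9 ± 11.8 CPM per kilobase (SD, n = 3) and CTGF second at 31.1 ± 3.07. WWTR1 at 17.5 ± 1.15 and TEAD1 at 16.4 ± 1.16 overlapped in range, AJUBA was at 13.4 ± 0.718 and AMOTL2 at 6.85 ± 0.622. YAP1 at 5.22 ± 0.428 and AMOTL1 at 4.96 ± 0.240 overlapped. LATS2 was at 4.47 ± 0.259, just under the range of AMOTL1, and ANKRD1 was last at 1.11 ± 0.168.

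All 10 genes were called different between the lines with DMSO, where 37% of protein-coding genes were called higher in Saos2 and 34.9% lower. In Saos2, 3 were higher, namely AJUBA by 2.89 ± 0.10 on the log2 scale, CYR61 by 1.92 ± 0.11 and ANKRD1 by 3.16 ± 0.62. The size for ANKRD1 rests on the 0 and 13 counts of the MG-63 libraries with DMSO. It was 2.24 without the former and 8.98 without the latter, where it is fitted against 0 counts and depends on the fit, and it was called in both cases. The other 7 were lower, with log2 differences of −5.37 ± 0.10 for CTGF, −3.06 ± 0.10 for YAP1, −2.07 ± 0.08 for WWTR1, −1.84 ± 0.08 for TEAD1, −0.91 ± 0.09 for AMOTL1, −0.79 ± 0.08 for AMOTL2 and −0.65 ± 0.09 for LATS2. The line, the annotation its table was counted on and any difference between sequencing runs cannot be told apart here. Scaling by total counts moved the median of all protein-coding genes from 0.06 to 0.54, and AMOTL1 at −0.44, AMOTL2 at −0.31 and LATS2 at −0.17 were then not called.

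**Figure D4:**
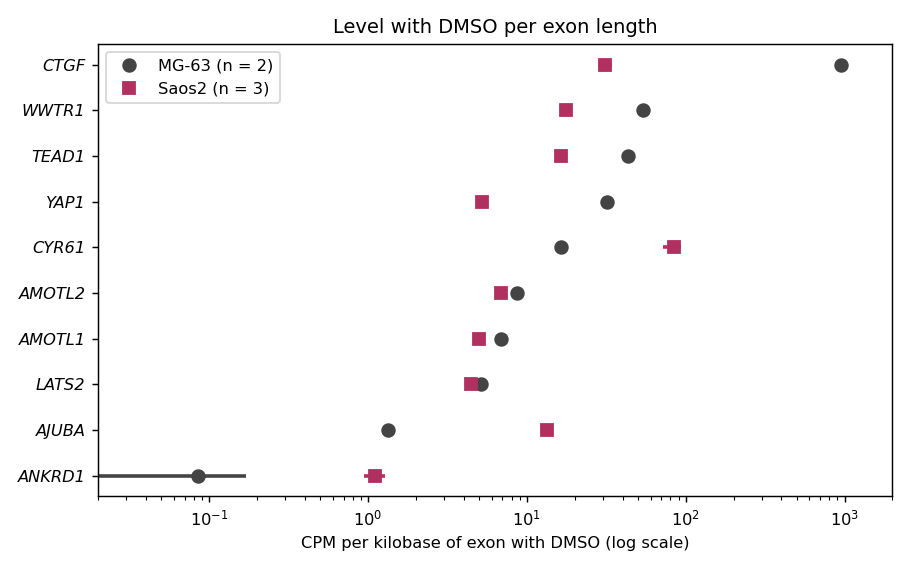
CPM per kilobase of exon with DMSO (horizontal axis, log scale) for each gene, with group means as symbols and lines from the lowest to the highest library. CPM were scaled within each line, so distances between the lines are not the log2 differences of the fit of 15 libraries. MG-63 is shown as gray circles and Saos2 as red squares, and the MG-63 line of ANKRD1 runs to the left edge because 1 library had 0 counts. CTGF is far higher in MG-63, and CYR61, AJUBA and ANKRD1 are higher in Saos2.

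The rest of the pathway was read from 4 lists of known pathway genes, chosen with earlier results of these data known. PTPN14 is in both the list of regulators and that of further targets, so these lists are not fully separate. Of all protein-coding genes, 10.6% were called higher and 7.28% lower with DDR in MG-63, and 5.22% and 2.6% with Roc. In Saos2 these shares were 8.77% and 8.32% with DDR and 15.7% and 11.8% with Roc. Among 28 Hippo kinases, scaffolds and junction regulators, 12 rose and 0 fell with DDR in MG-63 and 14 rose and 1, DCHS1, fell with Roc in Saos2. With Roc in MG-63, the 4 that rose were TAOK2, TAOK3, WTIP and FAT4, and with DDR in Saos2 the 6 that rose were WWC2, WWC3, TAOK1, TAOK3, AMOT and FAT4. The list medians with DDR and Roc were 0.38 and 0.23 for MG-63 cells and 0.35 and 0.49 for Saos2 cells, beside −0.02 to 0.02 for all protein-coding genes.

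The atypical cadherin gene FAT4 rose in all 4 comparisons, by 1.23 ± 0.07 and 0.92 ± 0.07 with DDR and Roc in MG-63 and by 0.63 ± 0.09 and 0.53 ± 0.09 in Saos2. The last of these fell below 0.5 when any of Saos2 DMSO replicate 1 (0.447), DMSO replicate 2 (0.434), DDR replicate 2 (0.493) or Roc replicate 1 (0.447) was left out, and under total-count scaling (0.436). AMOT, the founding angiomotin, measured 5.48 and 6.40 CPM with DMSO in MG-63 and 78.8, 79.7 and 88.6 CPM in Saos2. In Saos2 it rose by 0.75 ± 0.08 and 1.35 ± 0.08 with DDR and Roc, and by 0.71 ± 0.15 with DDR in MG-63.

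TAOK1, a kinase gene upstream of the cascade, rose in Saos2 by 1.02 ± 0.09 with DDR and 1.27 ± 0.09 with Roc and was at 0.31 ± 0.08 and 0.19 ± 0.08 in MG-63. WWC3, of the KIBRA scaffold family, rose in Saos2 by 0.73 ± 0.09 and 1.16 ± 0.09 and was at 0.24 ± 0.08 and 0.23 ± 0.09 in MG-63. LATS1, the paralog of LATS2, rose with Roc in Saos2 by 0.83 ± 0.07. It was at 0.49 ± 0.07 with DDR in Saos2, just under the threshold, and in MG-63 it was at 0.02 ± 0.07 with DDR and at 0.00 ± 0.07 with Roc. It passed the threshold with DDR in Saos2 without DDR replicate 1 (0.506), DDR replicate 2 (0.514) or DMSO replicate 3 (0.524).

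Of the 7 TEAD and VGLL factor genes, 5 were measured. VGLL1 and VGLL2 did not pass the filter on low counts. With DDR in MG-63 all 5 measured genes rose, TEAD2, TEAD3, TEAD4, VGLL3 and VGLL4, where 10.6% of protein-coding genes did. With Roc in MG-63 TEAD3, TEAD4 and VGLL3 rose, beside 5.22%. In Saos2 none of the 5 was called with DDR, and TEAD4 alone rose with Roc, beside 15.7% of protein-coding genes. TEAD4 rose by 1.03 ± 0.13 and 0.69 ± 0.13 with DDR and Roc in MG-63 and by 0.59 ± 0.14 with Roc in Saos2, the last being 0.465 and not called without Roc replicate 1.

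VGLL3, which encodes a TEAD cofactor, measured 32.6 and 30.3 CPM with DMSO in MG-63, 80.7 and 79.9 CPM with DDR and 61.0 and 45.4 CPM with Roc. It rose by 1.35 ± 0.10 and 0.75 ± 0.10, while the 3 Saos2 libraries with DMSO held 0.378 to 1.49 CPM. With Roc in Saos2 it was at 1.12 ± 0.49, adjusted p = 0.0751, and it was called without DMSO replicate 3 (1.91), with no filter on low counts or with the replicate block. VGLL4, which encodes a cofactor that competes with YAP for TEAD, rose with DDR in MG-63 by 0.60 ± 0.09 and was called in no other comparison against DMSO. The DDR responses of TEAD2, TEAD3 and TEAD4 were lower in Saos2 than in MG-63, with differences of −0.89 ± 0.16, −0.83 ± 0.21 and −1.01 ± 0.21.

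Among 17 further YAP and TAZ target genes, 7 rose and 1 fell with DDR in MG-63 and 3 rose and 2 fell with Roc. In Saos2, where DOCK5 did not pass the filter, 5 of 16 were called higher and 2 lower with DDR, and 10 and 2 with Roc. In the same order, the shares of protein-coding genes were 10.6% and 7.28%, 5.22% and 2.6%, 8.77% and 8.32%, and 15.7% and 11.8%. The list medians with DDR and Roc were 0.35 and 0.17 for MG-63 cells and 0.36 and 0.74 for Saos2 cells. The genes that fell were NT5E in MG-63 with both compounds, F3 in MG-63 with Roc, and CRIM1 and CCDC80 in Saos2 with both.

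RBMS3, an RNA-binding protein gene, rose in all 4 comparisons, by 0.65 ± 0.10 and 0.62 ± 0.10 with DDR and Roc in MG-63 and by 1.17 ± 0.10 and 1.73 ± 0.10 in Saos2. FOXF2, a forkhead factor gene, also rose in all 4, by 0.95 ± 0.11 and 0.82 ± 0.11 in MG-63 cells and by 1.00 ± 0.13 and 1.59 ± 0.13 in Saos2 cells. IGFBP3, which binds insulin-like growth factors, did so as well, by 1.28 ± 0.09 and 0.69 ± 0.09 in MG-63 cells and by 0.79 ± 0.13 and 1.02 ± 0.12 in Saos2.

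GADD45A, a growth arrest gene also induced by DNA damage, rose with DDR in MG-63 by 0.96 ± 0.10 and with Roc in Saos2 by 1.42 ± 0.10. With Roc in MG-63 it was at 0.40 ± 0.11, and with DDR in Saos2 at 0.43 ± 0.10, where it was called without DDR replicate 1 (0.508) or DMSO replicate 2 (0.503). NT5E, which encodes the surface nucleotidase CD73, fell in MG-63, with log2 fold changes of −0.95 ± 0.08 with DDR and −0.72 ± 0.08 with Roc, and it was at 0.20 ± 0.15 and 0.20 ± 0.15 in Saos2.

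The last list holds 20 genes of SRF, its MRTF cofactors and the actin cytoskeleton, a program that responds to tension alongside YAP. In MG-63 18 were measured, since ACTG2 and CNN1 did not pass the filter there. Here 3 rose and 1 fell with DDR, beside 10.6% and 7.28% of protein-coding genes. With Roc 1 rose and 1 fell, beside 5.22% and 2.6%. Of all 20 in Saos2, 1 was higher and 3 lower with DDR, beside 8.77% and 8.32%. With Roc 3 were higher and 3 lower, beside 15.7% and 11.8%. The genes of this list called higher with Roc are thus near the share of protein-coding genes in both lines. The list medians with DDR and Roc were 0.14 and 0.04 in the MG-63 comparisons and −0.09 and 0.15 in those of Saos2. ACTA2, the smooth muscle actin gene, was called lower in all 4 comparisons.

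MRTFA, an SRF cofactor gene, rose in MG-63 by 1.16 ± 0.11 with DDR and 0.62 ± 0.11 with Roc and in Saos2 with Roc by 0.57 ± 0.12, the last being 0.478 and not called under total-count scaling. MRTFB rose in Saos2 by 0.52 ± 0.07 and 0.69 ± 0.07 with DDR and Roc. Its DDR value was 0.479 without DDR replicate 3, 0.464 without DMSO replicate 1 and 0.472 under total-count scaling, each short of a call. FHL2, a LIM protein gene, rose with DDR in MG-63 by 0.86 ± 0.08 and with Roc in Saos2 by 0.86 ± 0.11. With Roc in MG-63 it was at 0.47 ± 0.08, and it was called without DMSO replicate 1 (0.524) or Roc replicate 2 (0.547).

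VCL, which encodes the focal adhesion protein vinculin, fell in Saos2, with log2 fold changes of −0.63 ± 0.08 with DDR and −0.80 ± 0.08 with Roc. Its value with DDR in MG-63 was −0.45 ± 0.08, and −0.507 and called without DDR replicate 2. ITGA5, the alpha subunit of the fibronectin receptor, fell in Saos2, with log2 fold changes of −0.93 ± 0.10 and −0.95 ± 0.10, and in MG-63 it was at 0.13 ± 0.08 and 0.12 ± 0.08.

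**Figure D5:**
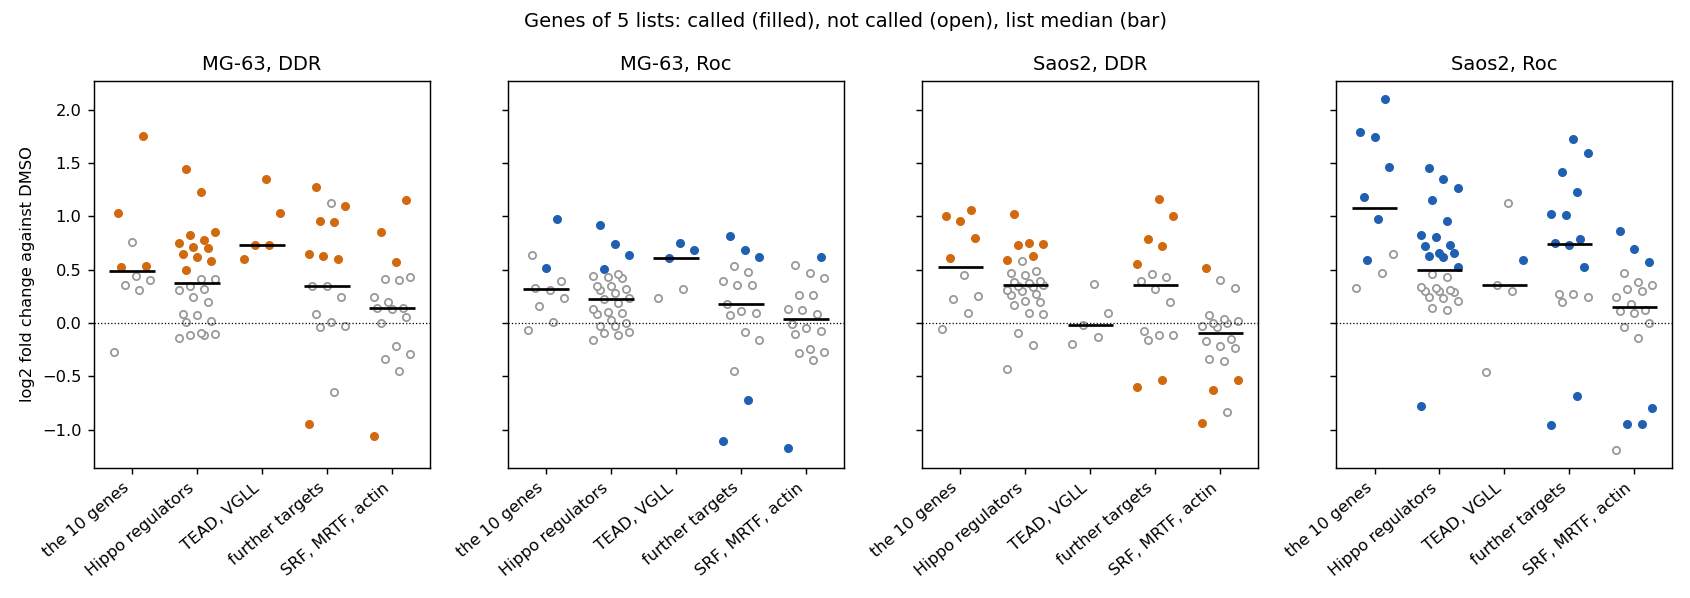
Log2 fold change against DMSO (vertical axis) of the genes of 5 lists, 1 panel for each line and compound. Each point is a gene, filled where called, and bars are list medians. The Hippo regulator and further target lists have medians above 0 in all 4 panels, and the SRF, MRTF and actin list lies near 0.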

How the data were processed

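RNA of MG-63 (6 libraries) and Saos2 (9 libraries) cells was sequenced from TruSeq stranded mRNA libraries. Per the submitters' processing notes, the authors removed mitochondrial, ribosomal and transfer RNA reads with Bowtie2 2.5.1, aligned to GRCh37 with STAR 2.7.3a and counted reads per gene with HTSeq 0.11.2, and the deposited raw counts were used as they stand. Which strand setting and annotation release HTSeq took is not stated in labels or methods, so opposite-strand neighbors are named beside the genes. The 55 other per-sample columns (values normalized with DESeq2, FPKM of Cufflinks 2.2.1 and copies of these) and the authors' own comparisons, which hold fold changes and p-values, were not used.

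Counts were tested with edgeR 4.0.16 (R 4.3.3) by the quasi-likelihood F test after filterByExpr and TMM scaling, with Benjamini-Hochberg adjustment over all genes tested. The 3 groups of a line entered 1 fit (15303 genes in MG-63, 17593 in Saos2). The differences between lines came from 1 fit of all 15 libraries over 18842 genes matched by ID. A call needed an adjusted p of at most 0.05 and a log2 fold change of at least 0.5 in size. CPM are counts per 1000000 after TMM scaling, computed within each line. The SE of a log2 fold change is its size divided by the square root of the F statistic. Intervals are at 95%, use this SE, and are for the estimated change given the spread between these libraries.

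Alternatives were DESeq2 1.42.0, limma-voom (limma 3.58.1), RLE and total-count scaling, no filter and a filter at 1 CPM, the compared groups alone, a replicate block, and leaving out each library. The edgeR fits were checked on simulated counts with known changes. The 10 genes, the 4 other pathway lists and the marker lists were chosen with earlier results of these data known, and 1 osteoblast marker is not reported here. From the other lists, the genes with the smallest p over the 4 comparisons against DMSO are named with values (5 each, and 3 TEAD and VGLL genes), and genes outside this rule were named after their values were seen. Gene coordinates and exon lengths are from GENCODE v44 lifted to GRCh37.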

Additional observations from a re-analysis of the deposited data

Results flagged for a closer look

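The response to a compound differed between Saos2 and MG-63 by the interaction test of edgeR for the genes below, at an adjusted p of at most 0.05 and a size of at least 0.5, and the cause was not tested. Among the 10 genes, the DDR response (Saos2 minus MG-63, log2) was 0.63 for YAP1, 0.57 for LATS2, 0.52 for TEAD1, −0.55 for AMOTL2 and −0.76 for AJUBA. The Roc response differed by 1.56 for YAP1, 1.44 for LATS2, 1.19 for CYR61, 1.17 for AJUBA, 0.86 for TEAD1, 0.71 for AMOTL2 and 0.50 for AMOTL1. As given above, the calls of TEAD1 and AMOTL2 for DDR and of AMOTL1 for Roc were lost under some alternatives.

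Of the other named genes, the DDR response differed by 1.18 for NT5E, 0.89 for MRTFB, 0.75 for TAOK1, 0.55 for RBMS3, 0.52 for WWC3, 0.51 for LATS1, −0.57 for FAT4, −1.01 for TEAD4, −1.03 for ITGA5 and −1.04 for MRTFA. The Roc response differed by 1.16 for RBMS3, 1.12 for TAOK1, 1.06 for GADD45A, 1.01 for MRTFB, 0.98 for WWC3, 0.96 for NT5E, 0.94 for AMOT, 0.87 for LATS1, 0.82 for FOXF2 and −1.03 for ITGA5. These differences of the other named genes were not refitted under the alternatives. Whether those near the threshold, such as LATS1, WWC3 and RBMS3 for DDR, keep their call was therefore not tested. Concentrations differed between the lines, and groups of 2 or 3 libraries were too small for a test of single libraries that stand apart. Replicates were compared by their mean squared difference per gene over that expected from counting alone. For Saos2 DDR replicate 2 it was 26.3 and 31.7 against replicates 1 and 3, and 9.81 between those. For Saos2 DMSO replicate 3 it was 26.1 and 21.1 against replicates 1 and 2, and 13.8 between those. The cause was not tested.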

How the results depend on the processing

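Counts of called genes kept within 1.5 times the main count under most alternatives. Total-count scaling left 2 of the 10 genes called with DDR in MG-63 (LATS2 at 0.48 and CYR61 at 0.49 were lost) and 1 for Roc against DDR in MG-63. The median of all protein-coding genes moved by under 0.1 with each scaling, except that total-count scaling moved it from 0.06 to 0.54 for the level with DMSO between the lines and from 0.04 to −0.08 for the Roc response between lines. Over the fits that left out 1 library, the genes called among the 10 were 2 to 4 for DDR and 1 to 2 for Roc in MG-63, 4 to 5 for DDR and 6 to 8 for Roc in Saos2, 1 to 2 and 5 to 6 for Roc against DDR in MG-63 and Saos2, and 3 to 6 for the DDR and 6 to 7 for the Roc response between lines. MG-63 groups of 1 library were assumed to vary like the other groups. The deviations of replicates with the same number correlated at −0.0116 to 0.0241 in MG-63. With 2 libraries a group, the values there for different numbers are these with the opposite sign by construction, so they are no comparison. In Saos2 the correlations were 0.00335 to 0.143 (different numbers, −0.111 to 0.0276). The deviations of a group sum to 0 there too, so values above 0 for the same number push the others down. The Saos2 ranges are thus no independent comparison either. All 9 Saos2 values for the same number were above 0, a hint of a weak shared deviation. Not all were over 0.1, so the numbers were not taken to pair the samples. DDR replicate 1 and Roc replicate 1 of Saos2 did not correlate best with each other. The replicate block changed no count of the 10 genes called, and moved that of all protein-coding genes within 1.5 times.

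No value that changed sign was called before or after, and the cause was not tested. AMOTL1 with Roc in MG-63 (0.01) was −0.012 with the compared groups alone, −0.00071 with DESeq2, −0.00091 with RLE scaling, −0.0015 with the stricter filter and −0.0121 with total-count scaling, and −0.0953 to 0.0988 when 1 library was left out. LATS1 in MG-63 was −0.0259 for DDR under total-count scaling. For Roc, LATS1 was −0.0154 with the compared groups alone and with total-count scaling, −0.0042 with DESeq2, −0.0041 with RLE scaling, −0.00051 without a filter, −0.0048 with the stricter filter and −0.0702 to 0.0681 leaving out 1 library. ANKRD1, with few counts, was 0.0053 for Roc against DDR in MG-63 under the replicate block. Its Roc response between lines was −1.01 with limma-voom, −0.0371 with the replicate block and −0.0284 with total-count scaling. Leaving out 1 library gave ANKRD1 −0.16 to 6.25 for DDR and −0.44 to 6.14 for Roc in MG-63, −1.21 to 0.58 for Roc against DDR there, −0.30 to 0.15 for DDR in Saos2, −6.59 to 0.15 for the DDR response and −5.72 to 1.13 for the Roc response, where 6.25, 6.14, −6.59 and −5.72 are fitted against a single MG-63 DMSO library of 0 counts and are no measure of size. The −6.59, which kept its direction, was the 1 value called among these. Such fits gave −0.14 to 0.0087 for the DDR response of AMOTL1, −0.0308 to 0.25 for that of CYR61, −0.10 to 0.19 for MRTFA and −0.11 to 0.0595 for TEAD4 with DDR in Saos2.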
